A study of Mus musculus with 4 samples.

Results

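The collagen family was described in the sciatic nerve of mice at postnatal day 7, in nerves of Zeb2 cKO mice and of control mice. The family was taken as every gene of the tables whose symbol has the form Col, a type number, the letter a and a chain number, which gave 42 genes of 21965. Zeb2 encodes a zinc finger transcription factor that Schwann cells use during myelination, and cKO stands for conditional knockout. Both groups had a mixed strain background, and each RNA sample was made from pooled sciatic nerves. The labels name neither the Cre driver nor the deleted exons, and they describe the control mice only as controls. The labels list 2 samples per group, while the data used here are 1 table with 1 set of values per group, treated as 1 library each. No value below has a replicate behind it, no test between the groups was possible, and differences are described by their size.

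Collagens are trimers of chains wound into a triple helix, and the helix needs glycine, the smallest residue, as 1 residue of every 3. Fibrillar collagens form the tensile fibres of the endoneurium, perineurium and epineurium and are made mainly by fibroblasts. Type IV chains form the sheet of every basement membrane, including the one that each Schwann cell lays around itself and its axon. FACIT collagens (fibril-associated collagens with interrupted triple helices) sit on the surface of fibres, and transmembrane collagens are held in the cell membrane. Types II, IX, X and XI are best known from cartilage and are here called cartilage-type.

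The coding sequences show this shared design, and 4 stretches are printed because their genes carry the results that follow. In GENCODE transcripts matched by accession, 41 of the 42 genes had a match, and all 41 held a run of at least 10 glycine codons (GGN) spaced 3 codons apart. Each line gives the opening 36 bases of the longest such run, with the glycine codons of the run in capitals. In Col3a1 the lower-case gga and ggt are glycine codons too, but they lie outside the spacing of the run.
Col3a1: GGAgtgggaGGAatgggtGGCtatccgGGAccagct
Col11a1: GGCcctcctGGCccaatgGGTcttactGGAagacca
Col9a1: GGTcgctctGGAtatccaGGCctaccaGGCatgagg
Col25a1: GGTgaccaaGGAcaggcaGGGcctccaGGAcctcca
What differs between the classes is how long the pattern goes on. In Col3a1 the longest run had 344 repeats, and in Col11a1 it had 338. The longest run of Col9a1 had 113 repeats and that of the longer Col25a1 transcript row 37. In the type IV chains the longest runs had 39 to 66 repeats and each chain held 13 to 18 runs, so the pattern is broken many times. Long fibrillar-type runs were found in members with large differences (Col11a1) and with small ones (Col3a1), and the interrupted type IV pattern was likewise found in chains with large differences (Col4a3) and with small ones (Col4a2).

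Levels are given in FPKM, fragments scaled to transcript length and to the size of the library, as the authors deposited them. Zeb2 itself had 19.5 FPKM in Zeb2 cKO nerves and 34.4 FPKM in control nerves. The tables hold an estimated 20180394 reads for the Zeb2 cKO library and 29616050 reads for the control library, which is 1.47 times as deep by coverage per FPKM. Differences are log2((FPKM + 1) Zeb2 cKO/(FPKM + 1) control), called log2 ratios, and a gene counts as measured at a mean of at least 1 FPKM. The median measured gene had a log2 ratio of 0.18, so a collagen ratio is to be read against that shift. Where a member changes side of 2-fold when the Zeb2 cKO values are divided by the median plain ratio of 1.16 (rescaled), this is said. Plain FPKM ratios are given as folds, with 95% Clopper-Pearson intervals on estimated reads that cover counting error only. In such bulk samples a different number of cells of a type and a different amount of RNA per cell cannot be told apart.

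Collagen genes as a family were higher in Zeb2 cKO nerves, and the size of the difference varied widely between members. Of the 42 genes, 35 were measured. Of these, 15 (42.9%) were 2-fold or more higher in Zeb2 cKO nerves, against 8.59% of 12903 measured genes. Only Col23a1 (2.86%) was 2-fold or more lower, against 6.25% of measured genes, and 19 members lay within 2-fold. The median log2 ratio of the measured members was 0.76. Among the 35 are 4 genes below 1 FPKM in control nerves (Col4a3, Col4a4, Col24a1 and Col25a1), which were measured only through their Zeb2 cKO level, and 3 of them are among the 15. Without the filter, 15 of 42 members were higher (35.7%), against 5.24% of 21965 genes, 1 was lower, against 3.79%, and the median was 0.60. After rescaling 13 members were higher and 2 were lower, against 6.08% and 7.42% of measured genes. Counting every member at any level, 35 had more FPKM in Zeb2 cKO nerves and 7 had less.

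**Figure D1:**
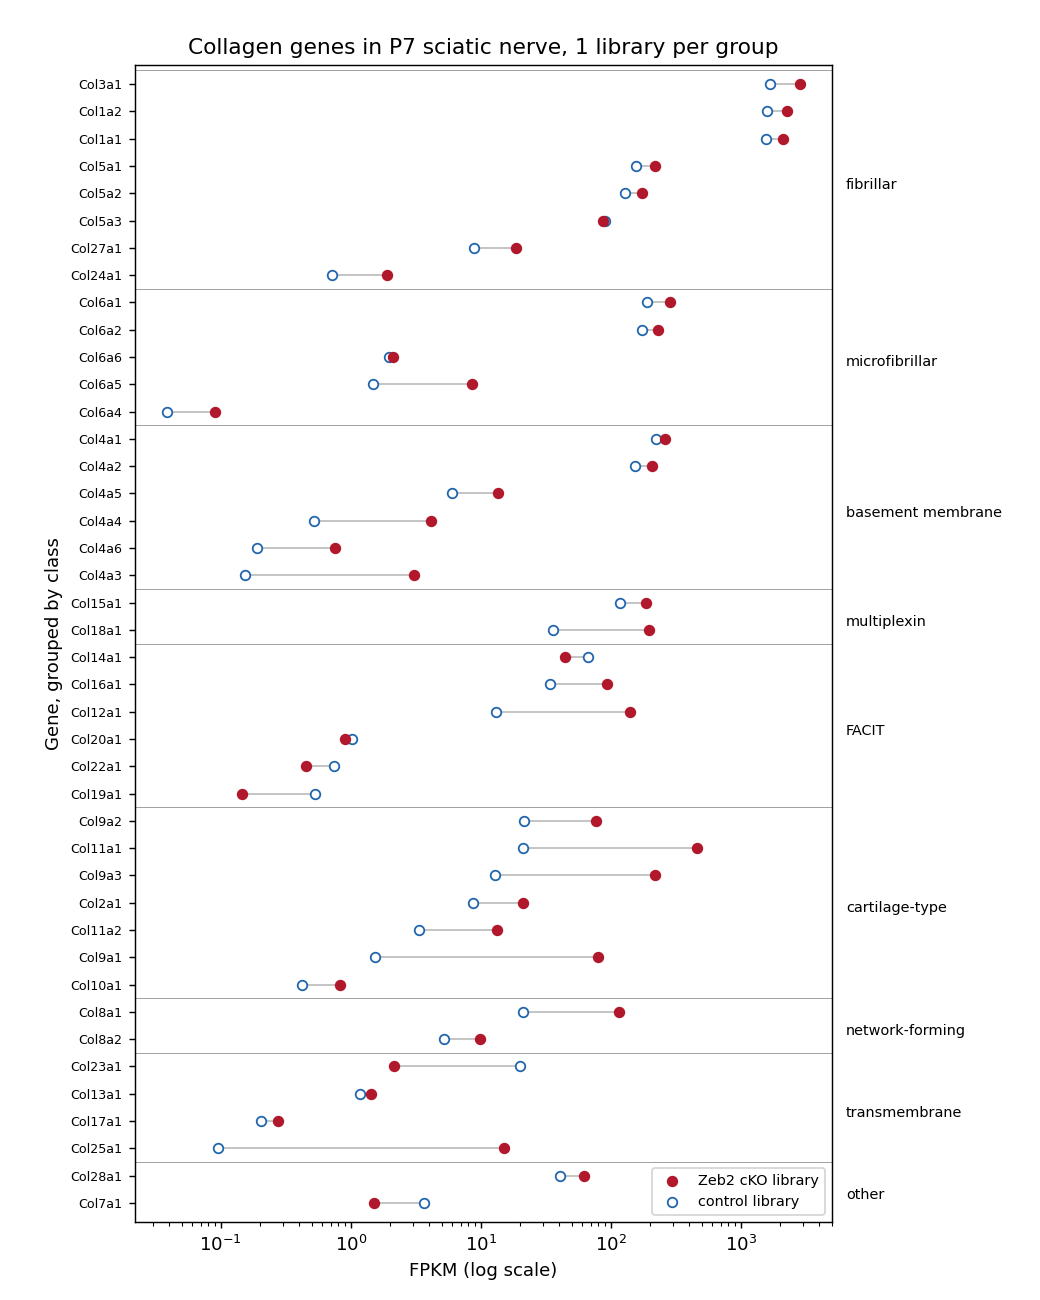
FPKM (log axis) of each of the 42 collagen genes in the Zeb2 cKO library (filled red) and the control library (open blue), grouped by class. The chains most abundant in the control library lie close together in both libraries, from Col3a1 at 2874 FPKM in the Zeb2 cKO library and 1692 FPKM in the control library down. Col9a1, Col11a1, Col9a3, Col12a1 and Col25a1 are far apart.

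The collagens most abundant in control nerves lay within 2-fold. In control nerves 10 members were at 100 FPKM or more, and all 10 were within 2-fold, with log2 ratios of 0.22 to 0.76. Of all 617 genes at that level in control nerves, 27 (4.38%) were past 2-fold upwards and 127 downwards in Zeb2 cKO nerves. The 15 higher collagens were at 0.0947 to 36.1 FPKM in control nerves. In Zeb2 cKO nerves 15 members reached 100 FPKM, against 10 in control nerves. The 5 additional ones were Col11a1, Col9a3, Col18a1, Col12a1 and Col8a1.

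Over all members, the family summed to 10532 FPKM in Zeb2 cKO nerves and 6417 FPKM in control nerves, 1.64-fold higher (1.42-fold after rescaling). It took 6.81% of the estimated reads in Zeb2 cKO nerves and 4.09% in control nerves. The fibrillar class supplied 73.8% of the family's FPKM in Zeb2 cKO nerves and 81.5% in control nerves. The other classes together were at 2761 FPKM in Zeb2 cKO nerves and 1185 FPKM in control nerves, 2.33-fold higher. Of that difference of 1577 FPKM, cartilage-type chains held 799 FPKM.

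**Figure D2:**
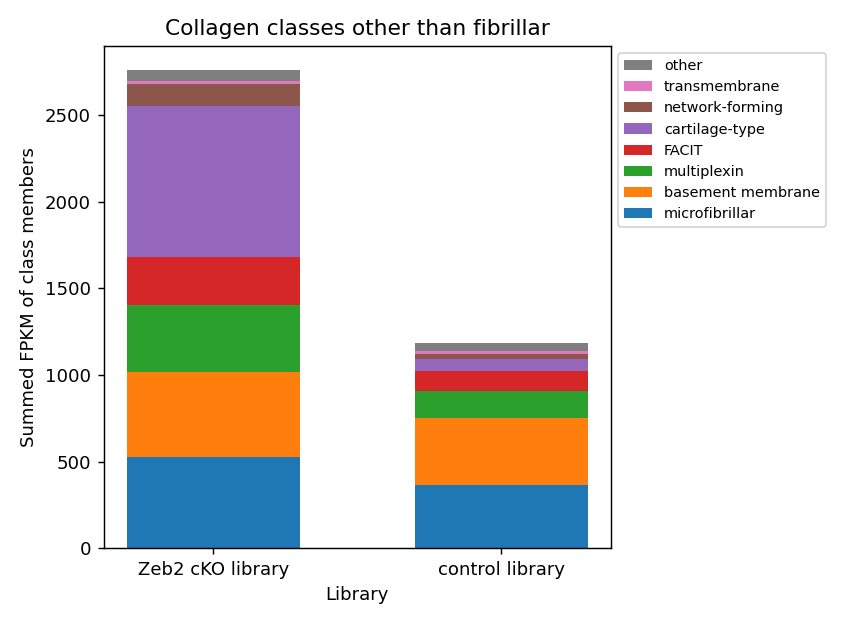
Summed FPKM of the members of each collagen class other than fibrillar, stacked, in the Zeb2 cKO library (left) and the control library (right). The cartilage-type band is 869 FPKM high in the Zeb2 cKO library and 69.8 FPKM high in the control library.

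The fibrillar class as fixed here holds 8 chains of types I, III, V, XXIV and XXVII. By log2 ratio none of the 8 was 2-fold apart, and their median log2 ratio was 0.50, against 0.18 for all measured genes. By plain fold Col24a1 and Col27a1 were past 2-fold upwards. Col2a1, Col11a1 and Col11a2 are also fibrillar by structure but are counted here as cartilage-type. Their log2 ratios were 1.17, 4.36 and 1.71, so the small differences hold for the class as fixed and not for every fibrillar chain. Col3a1, the homotrimer of type III collagen that mixes into type I fibres (chromosome 1, 45368383 to 45406551, mm9), had 2874 FPKM in Zeb2 cKO nerves and 1692 FPKM in control nerves, 1.70-fold higher (counting interval 1.69 to 1.71). It was the gene of rank 6 among all genes in Zeb2 cKO nerves and of rank 15 in control nerves. Col1a2, a chain of type I collagen (chromosome 6, 4455697 to 4491543), had 2275 FPKM in Zeb2 cKO nerves and 1580 FPKM in control nerves, 1.44-fold higher. Its partner Col1a1 (chromosome 11, 94797584 to 94813170) had 2121 FPKM in Zeb2 cKO nerves and 1576 FPKM in control nerves, 1.35-fold higher. These 3 genes made up 69.0% of the family's FPKM in Zeb2 cKO nerves and 75.5% in control nerves.

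The chains of type V, which sit in the core of type I fibres and limit their width, lay well within 2-fold. Col5a1 had 218 FPKM in Zeb2 cKO nerves and 156 FPKM in control nerves, and Col5a2 had 174 FPKM in Zeb2 cKO and 129 FPKM in control nerves. Col5a3, a type V chain that Schwann cells of the rat are known to make, was the exception in direction, at 87.6 FPKM in Zeb2 cKO nerves against 90.2 FPKM in control nerves (a fold of 0.971, with a counting interval of 0.95 to 0.993). Col27a1 had the largest log2 ratio of the fibrillar class as fixed here, at 18.8 FPKM in Zeb2 cKO nerves and 8.95 FPKM in control nerves. Its fold was 2.10, and with the pseudocount its log2 ratio was 0.99, just inside 2-fold. Col24a1 was low in both libraries, at 1.91 FPKM in Zeb2 cKO nerves and 0.723 FPKM in control nerves. Its plain fold of 2.64 (counting interval 2.20 to 3.18) was the largest of the class as fixed here, and with the pseudocount its log2 ratio was 0.75.

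Partner chains of one trimer stood in similar proportions in the types abundant in control nerves. The ratio of Col1a1 to Col1a2 was 0.932 in Zeb2 cKO nerves and 0.997 in control nerves. For Col5a1 to Col5a2 it was 1.25 in Zeb2 cKO nerves and 1.21 in control nerves. For Col6a1 to Col6a2 it was 1.23 in Zeb2 cKO nerves and 1.09 in control nerves. For Col4a1 to Col4a2 it was 1.27 in Zeb2 cKO nerves and 1.46 in control nerves. These ratios within a library do not depend on its scaling. The ratio of Col3a1 to Col1a1, chains of different trimers, was 1.35 in Zeb2 cKO nerves and 1.07 in control nerves.

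Cartilage-type chains had the highest median log2 ratio and the highest ratio of class totals of the 9 classes, while the difference in summed FPKM was larger for the fibrillar class (2538 against 799 FPKM). Of 7 members 6 were measured, and all 6 were 2-fold or more higher in Zeb2 cKO nerves, with a median log2 ratio of 2.89. After rescaling 5 of the 6 kept that size, and Col2a1 did not (log2 ratio 0.97). The class had 869 FPKM in Zeb2 cKO nerves and 69.8 FPKM in control nerves, 12.5-fold higher, and made up 8.25% of the family's FPKM in Zeb2 cKO nerves and 1.09% in control nerves.

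Col11a1, a chain of type XI collagen that starts thin fibres and can also pair with type V chains (chromosome 3, 113733458 to 113923244), had 458 FPKM in Zeb2 cKO nerves and 21.3 FPKM in control nerves. That is 21.5-fold higher (counting interval 20.9 to 22.1), and it was the gene of rank 117 in Zeb2 cKO nerves and of rank 3109 in control nerves. Its ratio to Col5a1 was 2.10 in Zeb2 cKO nerves and 0.136 in control nerves. The second type XI chain, Col11a2, had 13.3 FPKM in Zeb2 cKO nerves and 3.38 FPKM in control nerves, 3.93-fold higher. Col11a1 was thus 34.5 times the level of Col11a2 in Zeb2 cKO nerves, and 6.30 times in control nerves.

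The promoter of Col11a1 is shown because it carries the largest difference in FPKM outside the fibrillar class. The window runs from 250 bases before to 50 bases after the start annotated in RefSeq (GRCm38.p6, plus strand, chr3:114030290-114030589). Capitals mark GGGCGG (a GC box) and CCAAT on either strand.
Col11a1: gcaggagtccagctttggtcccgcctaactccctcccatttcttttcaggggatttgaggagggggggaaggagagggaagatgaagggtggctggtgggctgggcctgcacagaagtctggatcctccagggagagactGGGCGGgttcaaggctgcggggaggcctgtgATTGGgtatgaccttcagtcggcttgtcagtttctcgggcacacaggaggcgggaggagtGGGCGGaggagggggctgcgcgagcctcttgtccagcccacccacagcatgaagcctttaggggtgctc
The window holds GC boxes, a CCAAT box on the other strand, and neither TATAAA nor CACCTG.

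All 3 chains of type IX collagen, a FACIT that coats type II and XI fibres in cartilage, were higher. Col9a1 (chromosome 1, 24184449 to 24259577) had 79.7 FPKM in Zeb2 cKO nerves and 1.54 FPKM in control nerves, 51.8-fold higher (counting interval 45.2 to 59.6). Col9a3 (chromosome 2, 180332927 to 180356890) had 220 FPKM in Zeb2 cKO nerves and 13 FPKM in control nerves, 16.9-fold higher. Col9a2 (chromosome 4, 120712171 to 120727930) had 76.6 FPKM in Zeb2 cKO nerves and 21.4 FPKM in control nerves, 3.58-fold higher. The 3 chains form 1 trimer, and their proportions were unequal in control nerves, where Col9a1 stood at 0.0720 of the Col9a2 level. In Zeb2 cKO nerves that ratio was 1.04. The Col9a3 interval overlaps Tcfl5, at 6.06 FPKM in Zeb2 cKO nerves and 1.11 FPKM in control nerves, and the reads of the pair cannot be told apart without strand.

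Col2a1, the main fibrillar chain of cartilage, had 21.0 FPKM in Zeb2 cKO nerves and 8.78 FPKM in control nerves, 2.39-fold higher. Col10a1, the marker of hypertrophic cartilage, was not measured, at 0.833 FPKM in Zeb2 cKO nerves and 0.421 FPKM in control nerves, and it overlaps Nt5dc1. Of 17 listed cartilage and bone markers, 16 were in the tables and 7 were measured. Of these 7, 4 were 2-fold or more higher, against 8.59% of all measured genes. The list summed to 181 FPKM in Zeb2 cKO nerves and 23.4 FPKM in control nerves. Most of that sum was Epyc, a small proteoglycan, at 143 FPKM in Zeb2 cKO nerves and 9.18 FPKM in control nerves. The other higher ones were Cytl1, at 9.25 FPKM in Zeb2 cKO nerves and 1.95 FPKM in control nerves (4.75-fold), Alpl, at 7.65 FPKM in Zeb2 cKO nerves and 0.990 FPKM in control nerves (7.72-fold), and the cartilage link protein Hapln1, at 2.00 FPKM in Zeb2 cKO nerves and 0.329 FPKM in control nerves (6.09-fold). Alpl and Hapln1 were below 1 FPKM in control nerves and were measured only through their Zeb2 cKO level. Acan, the aggrecan of cartilage matrix, had 0.206 FPKM in Zeb2 cKO nerves and 0.147 FPKM in control nerves. Comp had 0.211 FPKM in Zeb2 cKO nerves and 0.224 FPKM in control nerves, and Matn1 and Matn3 were listed at 0 in Zeb2 cKO nerves, while in control nerves Matn1 had 0.0162 FPKM. In control nerves Matn3 had 0.0405 FPKM. Sox9, the transcription factor of cartilage that other cells also use, had 9.76 FPKM in Zeb2 cKO nerves and 5.66 FPKM in control nerves.

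**Figure D3:**
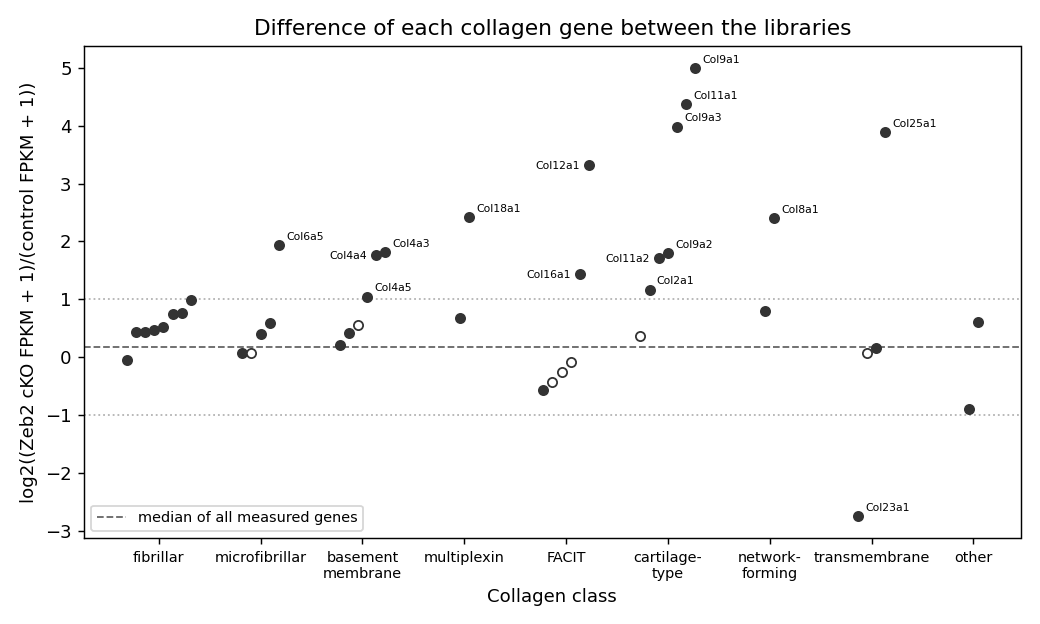
Log2 ratio of each collagen gene (Zeb2 cKO over control, pseudocount 1 FPKM) by class, with measured genes filled and genes below a mean of 1 FPKM open. The dashed line is the median of all measured genes (0.18) and dotted lines mark 2-fold; all named points lie outside 2-fold, and the fibrillar points lie between -0.04 and 0.99.

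FACIT chains of types XII, XIV and XVI, which bind the surface of type I fibres in soft tissue, differed in direction. Col12a1, linked to tissue under tension (chromosome 9, 79446798 to 79566485), had 140 FPKM in Zeb2 cKO nerves and 13.2 FPKM in control nerves, 10.7-fold higher (counting interval 10.4 to 11). Col16a1 had 93.4 FPKM in Zeb2 cKO nerves and 34.0 FPKM in control nerves, 2.75-fold higher. Col14a1, undulin, a close relative of Col12a1 (chromosome 15, 55139305 to 55352358), had 44.9 FPKM in Zeb2 cKO nerves against 67.2 FPKM in control nerves, 0.668 of the control level (0.649 to 0.687). The order of this pair of relatives was opposite in the libraries. Col12a1 stood at 3.13 times the level of Col14a1 in Zeb2 cKO nerves and at 0.196 times in control nerves. The 3 remaining FACIT genes were not measured. Col19a1 had 0.147 FPKM in Zeb2 cKO nerves and 0.534 FPKM in control nerves, Col22a1 had 0.450 FPKM in Zeb2 cKO and 0.742 FPKM in control nerves, and Col20a1 had 0.910 FPKM in Zeb2 cKO and 1.03 FPKM in control nerves.

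In the basement membrane class the common chains differed little and the rare chains more. Col4a1 (chromosome 8, 11198423 to 11312826) had 262 FPKM in Zeb2 cKO nerves and 225 FPKM in control nerves, 1.16-fold higher, which is the ratio of the median gene. Col4a2, its partner in the common type IV trimer (chromosome 8, 11312829 to 11449287), had 206 FPKM in Zeb2 cKO nerves and 154 FPKM in control nerves, 1.34-fold higher. Among the 5 measured chains, 3 were past 2-fold upwards, with a class median of 1.05 (0.85 after rescaling). Of the 3, Col4a3 and Col4a4 were measured only through their Zeb2 cKO level, and at a mean of at least 5 FPKM the class median was 0.42. The class total was 490 FPKM in Zeb2 cKO nerves and 386 FPKM in control nerves, 1.27-fold higher, with the common pair making up most of it.

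The rare chains of specialised basement membranes were 2-fold or more higher but stayed low. Col4a3, a chain of the kidney and lung trimer (chromosome 1, 82583496 to 82718634), had 3.06 FPKM in Zeb2 cKO nerves and 0.153 FPKM in control nerves, about 46.8 estimated reads. Its fold was 20.0 (counting interval 14.9 to 27.6). Its partner Col4a4 (chromosome 1, 82447298 to 82583424) had 4.18 FPKM in Zeb2 cKO nerves and 0.523 FPKM in control nerves, 7.99-fold higher. Col4a5, the X-linked chain that completes that trimer, had 13.6 FPKM in Zeb2 cKO nerves and 6.05 FPKM in control nerves, 2.24-fold higher, and within 2-fold after rescaling. Col4a6 was not measured, at 0.751 FPKM in Zeb2 cKO nerves and 0.189 FPKM in control nerves.

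Type IV genes lie in head-to-head pairs, so neighbours start close to each other. On mm9 the Col4a1 and Col4a2 intervals of the tables are 2 bases apart, those of Col4a4 and Col4a3 are 71 bases apart, and those of Col4a6 and Col4a5 are 1342 bases apart. Partners of a pair had the same direction with unequal folds, 1.16 for Col4a1 beside 1.34 for Col4a2, 20.0 for Col4a3 beside 7.99 for Col4a4, and 2.24 for Col4a5 beside 3.97 for Col4a6. Col4a6 was not measured, and 35 of the 42 collagen genes had that direction, so the shared direction is not particular to pairs. The windows of the pair Col4a1 and Col4a2 are printed because they share bases. They lie on chromosome 8 of GRCm38.p6, on the minus strand for Col4a1 (chr8:11312777-11313076) and on the plus strand for Col4a2 (chr8:11312555-11312854). Capitals mark the 78 bases that both windows hold, on opposite strands.
Col4a1: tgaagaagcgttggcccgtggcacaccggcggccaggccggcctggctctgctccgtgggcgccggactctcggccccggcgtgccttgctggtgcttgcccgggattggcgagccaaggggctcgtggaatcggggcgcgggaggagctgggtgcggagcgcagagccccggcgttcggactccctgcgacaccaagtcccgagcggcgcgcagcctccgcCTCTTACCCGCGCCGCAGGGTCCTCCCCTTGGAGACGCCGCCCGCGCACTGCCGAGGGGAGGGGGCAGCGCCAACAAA
Col4a2: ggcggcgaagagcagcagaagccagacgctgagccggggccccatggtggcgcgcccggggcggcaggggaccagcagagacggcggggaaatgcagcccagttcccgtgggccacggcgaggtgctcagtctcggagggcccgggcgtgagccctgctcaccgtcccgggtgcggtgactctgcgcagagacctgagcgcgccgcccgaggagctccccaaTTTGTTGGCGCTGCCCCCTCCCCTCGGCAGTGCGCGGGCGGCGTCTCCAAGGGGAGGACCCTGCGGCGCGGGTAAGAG
Guanine and cytosine make up 74.0% of the Col4a1 window and 73.7% of the Col4a2 window, against a median of 52.7% over 32851 windows of the same table.

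The multiplexins Col15a1 and Col18a1 carry their chains in or beside basement membranes. Col15a1 (chromosome 4, 47220884 to 47326037) had 188 FPKM in Zeb2 cKO nerves and 117 FPKM in control nerves, 1.60-fold higher. Col18a1, the source of endostatin (chromosome 10, 76514924 to 76629275), had 197 FPKM in Zeb2 cKO nerves and 36.1 FPKM in control nerves, 5.46-fold higher. The level of Col18a1 was 1.05 times that of Col15a1 in Zeb2 cKO nerves and 0.309 times in control nerves.

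The Col18a1 difference lay in 1 of its 2 transcript rows. The row that starts upstream, at the far end of the locus, had 193 FPKM in Zeb2 cKO nerves and 27.8 FPKM in control nerves, 6.94-fold higher (counting interval 6.73 to 7.16). The row that starts downstream had 4.09 FPKM in Zeb2 cKO nerves and 8.29 FPKM in control nerves, 0.494 of the control level (0.448 to 0.544). The upstream row therefore made up 97.9% of the gene in Zeb2 cKO nerves and 77.1% in control nerves. The starts are 52825 bases apart in the tables, and RefSeq has a promoter window at each of them with the same distance between them (GRCm38.p6, minus strand). The upstream window is chr10:77166481-77166780 and the downstream one is chr10:77113656-77113955. Both are printed since they belong to rows that differ in direction, and capitals mark GGGCGG and CCAAT on either strand.
Col18a1 upstream: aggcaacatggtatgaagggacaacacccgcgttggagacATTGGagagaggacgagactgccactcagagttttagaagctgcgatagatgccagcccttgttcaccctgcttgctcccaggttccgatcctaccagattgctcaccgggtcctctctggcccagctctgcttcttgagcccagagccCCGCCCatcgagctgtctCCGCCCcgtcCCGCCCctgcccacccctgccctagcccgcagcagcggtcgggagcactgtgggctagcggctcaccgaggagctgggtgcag
Col18a1 downstream: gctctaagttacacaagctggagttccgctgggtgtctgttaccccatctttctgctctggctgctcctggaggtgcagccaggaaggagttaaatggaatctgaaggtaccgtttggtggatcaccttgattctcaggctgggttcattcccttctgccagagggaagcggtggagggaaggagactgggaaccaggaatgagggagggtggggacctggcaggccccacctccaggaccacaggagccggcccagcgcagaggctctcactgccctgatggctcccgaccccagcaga
The upstream window holds GC boxes and a CCAAT box, and the downstream window holds none of the 5 motifs searched.

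Of the 4 other genes with 2 rows, Col2a1 and Col4a5 also had rows with unequal folds. The Col2a1 rows differ in an internal exon of 204 bases (GRCm38, chromosome 15, 98000403 to 98000606), which the longer transcript includes, and in the length of the first exon. The form with this exon is known from cartilage precursors and from tissues other than cartilage, and the form without it from mature cartilage. The row with the exon had 11.1 FPKM in Zeb2 cKO nerves and 2.67 FPKM in control nerves, 4.16-fold higher (counting interval 3.75 to 4.63). The row without it had 9.87 FPKM in Zeb2 cKO nerves and 6.11 FPKM in control nerves, 1.62-fold higher (1.49 to 1.76). The row with the exon made up 53.0% of Col2a1 in Zeb2 cKO nerves and 30.4% in control nerves.

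For Col4a5 the longer row had 8.69 FPKM in Zeb2 cKO nerves and 5.11 FPKM in control nerves, and the shorter row had 4.88 FPKM in Zeb2 cKO and 0.933 FPKM in control nerves. Both rows were higher, by 1.70-fold and 5.23-fold. Col25a1 and Col6a6 each had a row near 0 in control nerves or in both, and their shares are not read. Shares of rows at 1 locus are Cufflinks estimates that split shared reads between transcripts, and the intervals do not cover that step.

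**Figure D4:**
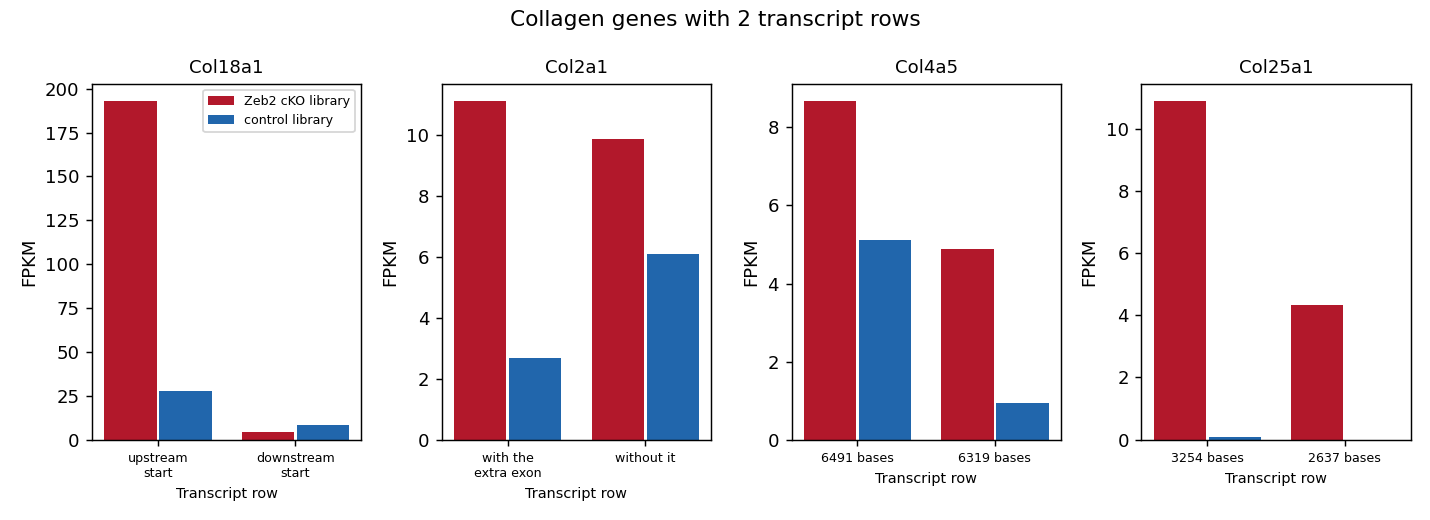
FPKM of the transcript rows of Col18a1, Col2a1, Col4a5 and Col25a1 in the Zeb2 cKO library (red, left of each pair) and the control library (blue, right), with bars from 0. In Col18a1 the upstream row is higher and the downstream row lower in the Zeb2 cKO library, and in the other 3 genes both rows are higher.

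Microfibrillar type VI chains form beaded filaments around cells. Col6a1 (chromosome 10, 76171537 to 76188789) had 286 FPKM in Zeb2 cKO nerves and 189 FPKM in control nerves, 1.51-fold higher. Col6a2 had 232 FPKM in Zeb2 cKO nerves and 174 FPKM in control nerves, 1.33-fold higher. Col6a5, a chain of the same subfamily as Col6a3, had 8.51 FPKM in Zeb2 cKO nerves and 1.48 FPKM in control nerves, 5.74-fold higher. Col6a6 had 2.10 FPKM in Zeb2 cKO nerves and 1.96 FPKM in control nerves, and its log2 ratio of 0.07 turned to -0.07 after rescaling. Col6a4 was not measured, at 0.0897 FPKM in Zeb2 cKO nerves and 0.0385 FPKM in control nerves. Col6a3 was not analysed here.

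Of the short-chain network collagens, Col8a1, known from blood vessel walls and the membrane under corneal endothelium (chromosome 16, 57624369 to 57754850), had 116 FPKM in Zeb2 cKO nerves and 21.2 FPKM in control nerves. It was 5.47-fold higher (counting interval 5.28 to 5.67). Its partner Col8a2 had 9.88 FPKM in Zeb2 cKO nerves and 5.23 FPKM in control nerves, 1.89-fold higher.

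Transmembrane collagens held the largest plain fold of the family and, by log2 ratio before rescaling, its only member 2-fold or more lower. The largest log2 ratio was that of Col9a1 (4.99). By plain fold, Col7a1 (2.42-fold) and Col19a1 (3.64-fold, not measured) were also more than 2-fold lower. Col25a1, a collagen known mainly from neurons and from muscle that is being innervated (chromosome 3, 129883796 to 130299335), had 15.2 FPKM in Zeb2 cKO nerves and 0.0947 FPKM in control nerves. The control value rests on about 11 estimated reads, so the fold of 161 is poorly bounded. For its longer row alone the fold was 115, with a counting interval of 64.0 to 232. Col23a1 (chromosome 11, 51103422 to 51397427) had 2.13 FPKM in Zeb2 cKO nerves and 20.0 FPKM in control nerves, 9.36-fold lower (counting interval 8.31 to 10.6). Skeletal muscle markers and myelin genes were lower in the same library, with values below, and their part in the Col23a1 difference was not tested. Col13a1 had 1.44 FPKM in Zeb2 cKO nerves and 1.18 FPKM in control nerves, and Col17a1 had 0.274 FPKM in Zeb2 cKO nerves and 0.204 FPKM in control nerves. Their intervals, like that of Col20a1, included a fold of 1, and those of the other 34 members with 1 row did not.

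In the remaining group, Col28a1, a collagen known from the nerve and its glia (chromosome 6, 7947808 to 8142617), had 62.8 FPKM in Zeb2 cKO nerves and 40.9 FPKM in control nerves, 1.54-fold higher. Col7a1, which anchors skin epidermis, had 1.5 FPKM in Zeb2 cKO nerves and 3.64 FPKM in control nerves. Its log2 ratio was -0.89, and -1.01 after rescaling. The gene listed as Emid2 is Col26a1 in RefSeq and lies outside the naming rule. It had 74.0 FPKM in Zeb2 cKO nerves and 58.7 FPKM in control nerves.

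Promoter windows were available for 34 of the 42 genes, 37 windows in all, and 5 motifs were searched on both strands. Besides GGGCGG and CCAAT, these were the TATA box TATAAA, the SOX-type core ACAATG and the E-box CACCTG, which ZEB factors and many other E-box factors are known to bind. No motif contains another. GGGCGG was in 62.2% of the collagen windows and in 35.7% of all 32851 windows, many of which belong to genes not measured here. Among measured genes with a window it was in 63.3% of 709 higher genes and 70.2% of 8360 others. The collagen share of windows was not above these shares, which count genes and not windows. Counted by gene, GGGCGG was in 81.8% of 11 higher collagen members and 56.5% of 23 others, at any level. CCAAT was in 35.1% of the collagen windows and 37.4% of all windows. TATAAA was in 13.5% of the collagen windows and 13.6% of all windows, and ACAATG was in 2.70% of the collagen windows and 12.6% of all windows. Among measured genes with a window, CCAAT was in 43.4% of the higher genes and 42.8% of the others. For TATAAA these shares were 14.5% and 8.25%, and for ACAATG 7.76% and 9.08%. CACCTG was in 5 collagen windows (13.5%), against 20.2% of all windows. The 5 belong to Col16a1, Col4a4, Col6a5, Col8a1 and Col9a2, all among the 15 higher members, a pattern seen only after the values were known. Of the higher members 11 have a window, and of the others 23 have one, with 0 holding CACCTG. Among all measured genes with a window, 23.4% of the higher genes and 19.8% of the others held it. A lean towards higher collagen members was not particular to this E-box. The GC box had one too, as given above, and the CCAAT box was in 6 of 11 higher members and 7 of 23 others. The TATA box (1 of 11 and 4 of 23) and the SOX-type core (0 of 11 and 1 of 23) went the other way. A match in a window is a description and not a site of binding.

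Counts in the gene lists below are to be read against measured genes, of which 8.59% were 2-fold or more higher and 6.25% lower. Of 21 listed genes that modify and fold procollagen chains, all measured, 5 were higher by 2-fold or more and 0 lower, with a median log2 ratio of 0.51. The most abundant by the mean of the libraries were Serpinh1, the collagen chaperone HSP47 (474 FPKM in Zeb2 cKO nerves and 364 FPKM in control nerves), P4hb (287 FPKM in Zeb2 cKO and 219 FPKM in control nerves) and Ppib (234 FPKM in Zeb2 cKO and 165 FPKM in control nerves). P4ha3, a subunit of prolyl 4-hydroxylase, had 14.9 FPKM in Zeb2 cKO nerves and 1.15 FPKM in control nerves, 12.9-fold higher. Colgalt2, a galactosyltransferase of collagen listed as Glt25d2, had 9.48 FPKM in Zeb2 cKO nerves and 2.46 FPKM in control nerves. Fkbp10, a prolyl isomerase, was 2.49-fold higher, and P3h3 (listed as Leprel2) and Fkbp7 were 2.13-fold and 2.09-fold higher but within 2-fold after rescaling. In the list of procollagen secretion, 0 of 12 genes were 2-fold apart, against 14.8% of measured genes, with a median of 0.51. Sec13, Sec31a and Sar1b, coat proteins of vesicles that leave the endoplasmic reticulum, had log2 ratios of 0.01, 0.56 and 0.12.

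Of 14 listed genes of extracellular processing and fibre assembly, 12 were measured, 6 were higher by 2-fold or more and 1 was lower, with a median of 0.84. Bmp1, which removes the C-terminal propeptide, had 107 FPKM in Zeb2 cKO nerves and 41.5 FPKM in control nerves, 2.58-fold higher, while its relative Tll1 had 1.61 FPKM in Zeb2 cKO and 5.0 FPKM in control nerves, 3.11-fold lower. The 3 N-propeptidases were all higher, with Adamts2 at 37.5 FPKM in Zeb2 cKO nerves and 17.0 FPKM in control nerves, Adamts14 at 14.6 FPKM in Zeb2 cKO and 5.17 FPKM in control nerves, and Adamts3, measured only through its Zeb2 cKO level, at 3.34 FPKM in Zeb2 cKO and 0.308 FPKM in control nerves. Fn1, the fibronectin on which fibres assemble, was 2.61-fold higher and Dpt 2.08-fold, and Adamts2 and Dpt were within 2-fold after rescaling. Pcolce, an enhancer of Bmp1, had 224 FPKM in Zeb2 cKO nerves and 146 FPKM in control nerves. Sparc, a collagen-binding protein and one of the most abundant genes, had 3033 FPKM in Zeb2 cKO nerves and 3371 FPKM in control nerves. With Sparc as most of its sum, the list totalled 3669 FPKM in Zeb2 cKO nerves and 3699 FPKM in control nerves.

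Among the crosslinking enzymes, 2 relatives of lysyl oxidase were past 2-fold. Loxl1 had 44.7 FPKM in Zeb2 cKO nerves and 12.5 FPKM in control nerves, 3.58-fold higher. Loxl2, which also crosslinks type IV collagen, had 110 FPKM in Zeb2 cKO nerves and 32.2 FPKM in control nerves, 3.43-fold higher. Loxl3 lay within 2-fold, at 17.7 FPKM in Zeb2 cKO nerves and 9.14 FPKM in control nerves, and Loxl4 was not measured. Lox itself had 32.2 FPKM in Zeb2 cKO nerves and 33.7 FPKM in control nerves. With Tgm2, a transglutaminase (2.21-fold, within 2-fold after rescaling), 3 of 5 measured genes were 2-fold or more higher, and the median was 1.09.

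Collagen receptors and uptake genes had the highest median of the 5 lists, 1.45, with 7 of 11 measured genes higher by 2-fold or more and 0 lower. They include 3 of the 4 alpha subunits of collagen-binding integrins, and the fourth, Itga11, was not measured, at 1.01 FPKM in Zeb2 cKO nerves and 0.617 FPKM in control nerves. Itga10, known from cartilage, had 8.13 FPKM in Zeb2 cKO nerves and 0.900 FPKM in control nerves, 9.03-fold higher, and was measured only through its Zeb2 cKO level. Itga1 had 19.4 FPKM in Zeb2 cKO nerves and 4.87 FPKM in control nerves, and Itga2 had 10.7 FPKM in Zeb2 cKO and 3.04 FPKM in control nerves. Their shared beta subunit Itgb1 had 197 FPKM in Zeb2 cKO nerves and 180 FPKM in control nerves. Ddr1 and Ddr2, receptor kinases that bind triple-helical collagen, were 3.16-fold and 2.16-fold higher, Ddr2 not after rescaling (log2 ratio 0.85). The uptake receptor Mrc2 was 2.87-fold higher and Cd44 3.05-fold. Gpr56, a receptor for type III collagen in brain, had 32.7 FPKM in Zeb2 cKO nerves and 29.2 FPKM in control nerves.

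**Figure D5:**
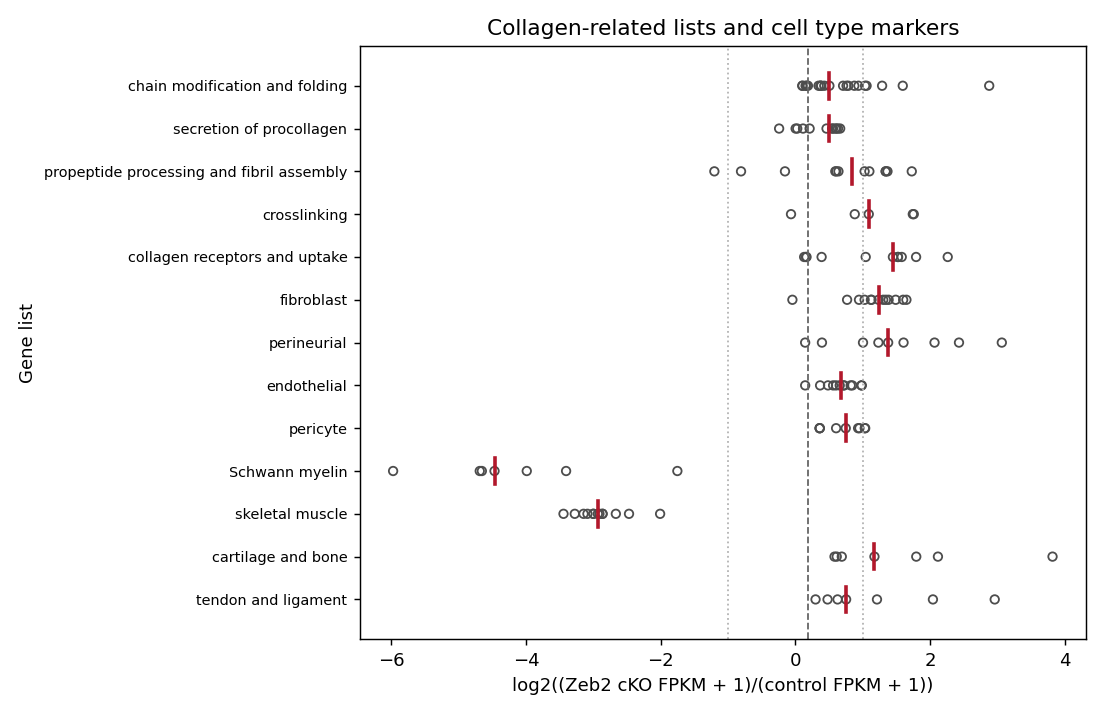
Log2 ratios (Zeb2 cKO over control, pseudocount 1 FPKM) of the measured genes of 5 collagen-related lists and 8 cell type marker lists; each circle is a gene and each red bar a list's median. The dashed line is the median of all measured genes (0.18) and dotted lines mark 2-fold; the secretion list lies inside 2-fold and the muscle and myelin lists lie below it.

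Markers of cells that make collagen differed as well, and their part in the collagen differences was not tested. Of 13 fibroblast markers, 10 were 2-fold or more higher (7 after rescaling), with a median of 1.24, and the list summed to 2606 FPKM in Zeb2 cKO nerves and 1033 FPKM in control nerves. Dcn, decorin, had 1401 FPKM in Zeb2 cKO nerves and 535 FPKM in control nerves, Lum had 455 FPKM in Zeb2 cKO and 183 FPKM in control nerves, and Cd34 had 179 FPKM in Zeb2 cKO and 58.2 FPKM in control nerves. Sfrp4 and Fbln1 were 3.24-fold and 3.19-fold higher. Beside these, Col1a1 was 1.35-fold higher, so the ratio of Col1a1 to Dcn was 1.51 in Zeb2 cKO nerves and 2.94 in control nerves. Of 9 measured perineurial markers, 7 were 2-fold or more higher (6 after rescaling), and the list summed to 303 FPKM in Zeb2 cKO nerves and 92.6 FPKM in control nerves. Cldn1 had 135 FPKM in Zeb2 cKO nerves and 24.2 FPKM in control nerves, and Moxd1 and Dleu7 were 11.7-fold and 5.29-fold higher. Slc2a1 had 56.4 FPKM in Zeb2 cKO nerves and 21.1 FPKM in control nerves, and Itgb4 had 28.7 FPKM in Zeb2 cKO and 25.8 FPKM in control nerves.

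Endothelial markers summed to 325 FPKM in Zeb2 cKO nerves and 207 FPKM in control nerves, and the highest were Egfl7 (61.5 FPKM in Zeb2 cKO and 55.4 FPKM in control nerves), Cdh5 (51.1 FPKM in Zeb2 cKO and 28.4 FPKM in control nerves) and Pecam1 (48.1 FPKM in Zeb2 cKO and 28.7 FPKM in control nerves). The largest log2 ratios there were those of Sox18 (0.99), Plvap (0.98) and Tek (0.85), and the median was 0.69. With the pseudocount 0 of 12 reached 2-fold, against 14.8% of measured genes, while the plain folds of Plvap and Sox18 were 2.06 and 2.05. Pericyte and smooth muscle markers had a median of 0.75 and summed to 316 FPKM in Zeb2 cKO nerves and 197 FPKM in control nerves, with Rgs5 at 101 FPKM in Zeb2 cKO and 48.8 FPKM in control nerves, Acta2 at 78.3 FPKM in Zeb2 cKO and 60.7 FPKM in control nerves and Tagln at 58.9 FPKM in Zeb2 cKO and 45.5 FPKM in control nerves. Of these 9 markers, 2 were 2-fold or more higher, Rgs5 and Cspg4 (2.15-fold), and 0 of 9 were past 2-fold after rescaling. Higd1b and Myh11 had plain folds of 2.25 and 2.10 but were within 2-fold with the pseudocount. Tendon and ligament markers had 3 of 7 measured genes 2-fold or more higher (Egr1 at 50.7 FPKM in Zeb2 cKO and 5.62 FPKM in control nerves, Thbs1 at 46.7 FPKM in Zeb2 cKO and 10.6 FPKM in control nerves, Scx at 4.99 FPKM in Zeb2 cKO and 1.58 FPKM in control nerves), and summed to 338 FPKM in Zeb2 cKO nerves and 160 FPKM in control nerves. Egr1 also responds to tissue handling, and Thbs4, the most abundant of them, had 208 FPKM in Zeb2 cKO nerves and 123 FPKM in control nerves.

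Skeletal muscle markers were lower throughout, with 13 of 13 genes 2-fold or more lower and a sum of 1092 FPKM in Zeb2 cKO nerves and 8835 FPKM in control nerves. Acta1 had 193 FPKM in Zeb2 cKO nerves and 1879 FPKM in control nerves, Mylpf had 229 FPKM in Zeb2 cKO and 1728 FPKM in control nerves, Myl1 had 179 FPKM in Zeb2 cKO and 1310 FPKM in control nerves, and Myh1 and Tnni2 were 15.5-fold and 8.95-fold lower. All 7 myelin genes found were 2-fold or more lower, with a sum of 1309 FPKM in Zeb2 cKO nerves and 26420 FPKM in control nerves. Pmp22 had 471 FPKM in Zeb2 cKO nerves and 12153 FPKM in control nerves, Mbp had 488 FPKM in Zeb2 cKO and 10825 FPKM in control nerves, Mal had 85.0 FPKM in Zeb2 cKO and 909 FPKM in control nerves, and Prx and Mag were 25.9-fold and 86.8-fold lower. These myelin genes took 0.340% of the estimated reads in Zeb2 cKO nerves and 6.59% in control nerves, and FPKM are scaled to the whole library with these genes in it. The part of this share in the collagen differences was not tested, and the rescaled values above are those relative to the median gene.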

How the data were processed

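The study measured RNA of pooled sciatic nerves by sequencing, with 2 samples per group per the labels. The 2 tables used here, 1 per group, were assigned by group, since the labels list each under both samples of its group. Per the submitters' processing notes, CASAVA, TopHat, Cufflinks and Cuffdiff were used on mm9, and versions and options are not given in the sources used here. The authors' deposited FPKM are Cufflinks estimates, and the second deposited signal is named coverage per the file headers and taken as read depth per base. The tables list the same 28107 transcript rows in different orders and were joined by transcript, symbol, locus and length. Rows not marked OK in at least 1 table (295) were dropped, none of them a collagen row, and FPKM were summed per gene. Coverage times length, divided by 52.6 bases (a median over 479 low values, taken as 1 read), gave estimated reads on which the 95% intervals rest. With 1 library per group no test was run, and a difference counts from 2-fold with a pseudocount of 1 FPKM and a mean of at least 1 FPKM. The pseudocount understates changes of low genes. All 42 members are given, with the 2-fold and 3 most abundant genes of each pathway list and the 3 largest and 3 most abundant of each marker list. Of 157 entries in those lists, 154 matched. Members, classes and lists were chosen with earlier results of these data known. Positions count from 1. Promoter windows are from RefSeq (GRCm38.p6) and coding sequences from GENCODE M21, matched by accession, and no coordinates were converted between builds. No strand of reads was used. The code that applies the 2-fold rule was tested on simulated reads. Python 3.11.15, pandas 2.3.3, numpy 2.4.6, scipy 1.17.1 and matplotlib 3.10.9 were used. A coding stretch of 1 gene is not reported here.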

Additional observations from a re-analysis of the deposited data

How the results depend on the processing

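No paired analysis was possible because each group has a single table, which also leaves no replicate to omit. Of 13 settings tried, those that could change it gave 11 (pseudocount of 5 FPKM) to 22 (1.5-fold) higher members in place of 15. The family's count of lower members was 2 in place of 1 with a pseudocount of 0.1 FPKM, after rescaling and at 1.5-fold. The basement membrane median of 1.05 was 0.65 with a pseudocount of 5 FPKM, 0.80 with no filter, 0.42 at a mean of at least 5 FPKM, 0.85 after rescaling and 0.66 with the top row of each gene. The FACIT median of 1.43 was -0.18 with no filter, which adds 3 low genes, and 0.67 with coverage in place of FPKM. The median of the remaining group (-0.14) was 0.076 with a pseudocount of 5 FPKM and 0.61 at a mean of at least 5 FPKM. Without the most abundant member of each class, the total of network-forming chains was 1.89-fold higher (4.76 with it), of transmembrane chains 11.4-fold higher (0.889 with it) and of the remaining group 0.413 of control (1.44 with it). The chain modification list had 2 higher genes with a pseudocount of 5 FPKM, 3 after rescaling, 10 at 1.5-fold and 2 at 3-fold, in place of 5. The processing list had 2 with a pseudocount of 5 FPKM and 1 at 3-fold in place of 6, and its median was 1.07 at a mean of at least 5 FPKM. The secretion list had 4 at 1.5-fold in place of 0, and the receptor list 2 at 3-fold in place of 7. The crosslinking median of 1.09 was 0.93 with a pseudocount of 5 FPKM, 0.99 with no filter and 0.89 after rescaling, and the receptor median was 0.96 with a pseudocount of 5 FPKM. Among ratios of single members, that of Col6a6 turned (-0.071 after rescaling) and no other changed sign under the pseudocounts, rescaling, coverage or the top row. The cause of these changes was not tested unless the setting itself removes genes.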
